A study of Mus musculus with 12 samples.

Results

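The Skint genes are a family of butyrophilin-like genes that lie side by side on mouse chromosome 4. The 10 members described here are Skint1, Skint2, Skint3, Skint4, Skint5, Skint6, Skint7, Skint9, Skint10 and Skint11, taken by symbol from 21900 protein-coding genes of the GRCm38 annotation. ESRP1 contacts with RNA were read from 3 deposited lists of crosslink sites, each site 1 nt wide and on a named strand. A site belonged to a member when it lay inside that gene's span, and sites on the gene's own strand and on the opposite strand were counted apart. Neighbouring sites on a strand were merged into a region if no gap between them exceeded 10 nt, and the same distance decided whether regions from separate lists counted as 1 shared region. The members held 90, 66 and 66 own-strand regions of lists 1, 2 and 3, out of 29037, 24363 and 22840 regions of the whole lists.

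The tissue was back-skin epidermis of pups on postnatal day 1, and every animal, in immunoprecipitates and inputs alike, was Esrp1FLAG/FLAG, so that the endogenous protein carried the tag and no untagged animals served as control. The design has 6 FLAG immunoprecipitates and 6 inputs, from biological replicates 1 to 6, made by eCLIP. In this assay ultraviolet light fixes a protein to RNA, and the stop of reverse transcription marks the contact. Each list came from 2 replicates called together with input: replicates 1 and 2 in list 1, 3 and 4 in list 2, and 5 and 6 in list 3. The lists give no read counts, so depth is unknown, and how many cells or how much RNA stood behind a site cannot be told apart. With 3 lists an exact sign-flip permutation test cannot give a p below 0.25, so lists were set side by side with no test.

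Skint proteins carry an immunoglobulin-like part outside the cell and several membrane-spanning segments, and are made mainly by keratinocytes and thymic epithelium. Skint1, the founding member, is needed in the mouse for the selection of the T cells that later settle in the epidermis as dendritic epidermal T cells. ESRP1 is an epithelial protein that binds RNA and directs the choice of alternative exons.

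The members are copies of each other to different degrees, and reads from close copies can be placed at either. The only Skint sequences at hand were the 300 bases around each gene start in RefSeq (build GRCm38.p6, 250 before and 50 after), available for all 10 members and for Skint8, the remaining annotated Skint gene. Among 65 pairs of windows from different genes the median identity was 48.0%, and the lowest was 40.6%. These alignments allowed gaps and no unrelated windows were aligned, so values near the median do not show relatedness. Identity inside the genes, where reads are placed, was not measured. Skint5 and Skint6 stood at 89.7%, with 269 of 300 bases alike and no gap. The next pairs were Skint11 with Skint10, at 60.3%, and Skint10 with Skint9, at 56.9%. The 30 bases just before the Skint6 start and the aligned bases of Skint5 are shown because this pair had the highest promoter identity, with capitals at the 5 positions that differ.
Skint6: aaGcAttattagaaacacaggtgaCacaAC
Skint5: aaAcCttattagaaacacaggtgaAacaGT
These stretches lie on the minus strand, at chr4:113286974-113287003 for Skint6 and chr4:113999504-113999533 for Skint5. For Skint11 and Skint10, the pair with the next highest identity, the gapless aligned stretch nearest to the Skint11 start is shown, with capitals at the 4 positions that differ.
Skint11: tGacttgccttggTgtgActcagGtttact
Skint10: tAacttgccttggCgtgGctcagAtttact
The Skint11 stretch is chr4:114163354-114163383 on the plus strand, and the Skint10 stretch is chr4:112774913-112774942 on the minus strand. The Skint11 stretch ends at the base before the start, whereas the Skint10 stretch runs from -81 to -52. Over these 30 bases the pair was as alike as Skint5 and Skint6, but its whole alignment held 106 gap positions. No site of any list fell in the promoter windows of the Skint genes.

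ESRP1 sites were present in most of the family and on the strand of the genes. Of the 10 members, 8 had an own-strand site in some list, 6 had sites in each list, and the same number, 6, had a region found in all 3 lists. Among the 17492 protein-coding genes whose strand could be read from the reference, 16.5% had an own-strand region in all 3 lists and 34.1% had one in any list. The share of members lay above this background. Gene length and expression were not matched in this comparison, and no test was made. The members were also chosen with earlier results of these data known, so the difference cannot be read as a trait of the family. The same limit holds wherever members are set beside all genes below. Own-strand sites of the family numbered 150, 82 and 100 in lists 1, 2 and 3. As a share of the list they made up 0.204%, 0.205% and 0.186%, which is 0.198% ± 0.0108 (SD, n = 3 lists). The number of sites in the family thus followed the length of the list.

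Skint6, with the second longest span of the family, held the most sites. Its own-strand sites numbered 50, 28 and 42 in lists 1, 2 and 3. Skint9 followed with 38, 24 and 22 sites. Both genes had their highest count in list 1, which is also the longest list. Skint3 had 22, 18 and 15 sites, and Skint10 had 21, 7 and 7. In mice, Skint3 and Skint9 are known from keratinocytes at the edge of skin wounds. Skint4 had 8, 4 and 4 sites, and Skint1 had 2, 1 and 9, so that Skint1 was the only member with most sites in list 3. Skint5 had 5, 0 and 1 sites and Skint11 had 4, 0 and 0. Skint2, whose protein is also called B7S3, and Skint7 had no site on either strand in any list.

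**Figure D1:**
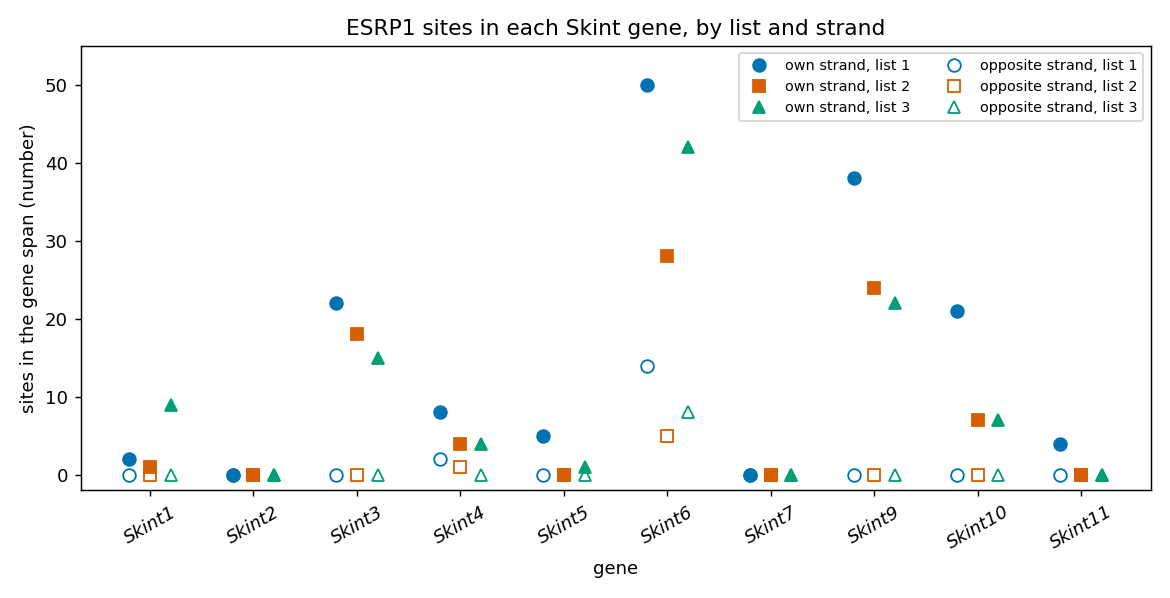
Number of ESRP1 sites in the span of each Skint gene, with a point per list, filled for the gene's own strand and open for the opposite strand. Skint6, Skint9, Skint3 and Skint10 hold most own-strand sites, and opposite-strand sites appear in Skint6 and Skint4.

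Relative to the length of the span the order was different. Skint9 had 17.5 own-strand sites per 10 kb of span over the 3 lists together, Skint3 had 8.06, Skint10 5.47 and Skint1 5.16. Skint6 came after these with 2.49, and Skint4 with 1.67, Skint11 with 0.490 and Skint5 with 0.115. By list, Skint9 had 7.91, 5.00 and 4.58 sites per 10 kb and Skint3 had 3.22, 2.64 and 2.20, so the lowest list of Skint9 stood above the highest list of Skint3. Skint10, with 3.28, 1.09 and 1.09, overlapped with Skint3. Skint6, with 1.04, 0.580 and 0.871, overlapped with Skint4, which had 0.833, 0.416 and 0.416, and with Skint1, which had 0.859, 0.430 and 3.87. Spans include introns, and exons were not annotated in the reference used here, so these are densities over the whole gene.

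Counts of regions found in all 3 lists were 9 in Skint6, 5 in Skint9, 3 each in Skint3 and Skint4, and 1 each in Skint1 and Skint10. These are 22 of 149 own-strand regions of the family, or 14.8% (95% exact binomial interval 9.49 to 21.5, counting error only), and a further 27 regions were in 2 lists and 100 in 1 list. Over all regions on both strands, inside and outside genes, 9649 of 45738 were in all 3 lists, which is 21.1% and lies inside that interval. At least 5 such regions were present in 2 members, Skint6 and Skint9, against 0.429% of protein-coding genes, a comparison limited by how the members were chosen. Without list 2 the family had 40 regions found in both remaining lists. Of these, 16 lay in Skint6, 11 in Skint9, 5 in Skint3, 3 each in Skint4 and Skint10, and 1 each in Skint1 and Skint5. List 2 is the shortest, with 40014 sites. The matching count over all genes was not computed, so the rise cannot be read as particular to the family.

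The regions of the family had lower scores than ESRP1 regions in general. The deposited score is the authors' own value and was only ranked within a list. The median own-strand site of the family stood at percentile 37.4 of list 1, 37.0 of list 2 and 38.6 of list 3, below the middle of every list. For regions in all 3 lists, the best site had a median percentile of 75.0, 67.0 and 62.0 in the family, against 82.4, 75.6 and 76.7 over all such regions. A best site among the top 25% of scores in every list was found for 1 of the 22 shared regions of the family (4.55%), against 35.9% of all shared regions. The top 50% in every list was reached by 9 of the 22 (40.9%), against 66.5% of all. Shared regions of the family were 1 to 16 nt long with a median of 4 nt, against a median of 8 nt over all shared regions.

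The region in the top 25% of every list lay in Skint9. It covered chr4:112399981-112399982 on the minus strand, 34004 nt from the start of the gene, and had best scores of 107, 74.7 and 58.7 in lists 1, 2 and 3, with both nucleotides among the sites of each list. The Skint9 span is chr4:112385969-112433985. Most of its sites, 73 of 84, fell in a stretch from 12682 to 34018 nt past the start, which held 35 of its 40 regions. Within this stretch 4 regions were found in all 3 lists, among them a broad region at chr4:112421093-112421107 with 5, 4 and 4 sites and best scores of 59.3, 18.2 and 63.8. The fifth shared region was a single nucleotide, 112433891, just 94 nt past the start, with scores of 26.3, 22.9 and 28.9. Skint9 is thus the member whose shared regions include one next to the annotated start, and no other member had a shared region within 1000 nt of its start.

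**Figure D2:**
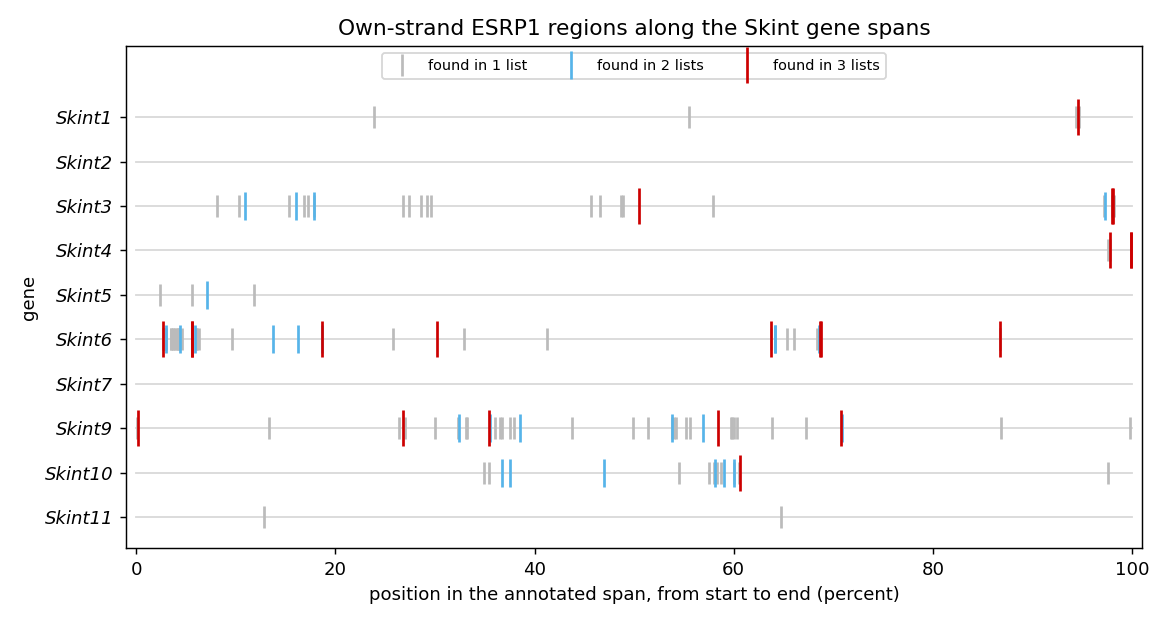
Own-strand ESRP1 regions of each Skint gene, placed along the annotated span from start to end in percent of its length. Tall red ticks are regions found in 3 lists, blue ticks in 2 lists and grey ticks in 1 list. The shared regions of Skint4 sit at the very end of the span, those of Skint9 lie mainly in its interior, and those of Skint6 are scattered.

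In Skint4, by contrast, every own-strand site lay close to the annotated end. Its span is chr4:112072016-112168076, and all 5 regions, with 16 sites, fell in a stretch of 2274 nt that began 93713 nt past the start. Of its 3 shared regions, 1 lay 2143 nt before the end and had best scores of 29.7, 27.3 and 19.9. The other two lay 93 and 73 nt before the end. The region at chr4:112167979-112167987 held the highest own-strand score of the family in list 1, 204, but reached only 3.35 in list 2 and 102 in list 3. The neighbouring single nucleotide 112168003 had scores of 49.5, 24.2 and 131, of which the last was the family's highest in list 3. As percentiles of the lists, these were 98.7, 16.2 and 94.9 for the first and 85.4, 71.6 and 97.0 for the second, so that list 2 ranked both lowest.

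Skint3 showed sites both in its interior and near its end. Its span is chr4:112232245-112300468. The shared region in the interior covered chr4:112266665-112266677, 34426 nt past the start, with 5, 2 and 3 sites and best scores of 23.9, 60.5 and 35.9. The percentiles were 69.4, 91.5 and 72.9, with list 2 the highest. The other two shared regions lay 1380 and 1323 nt before the end, in a stretch of 680 nt that held 6 regions. Their best scores were 32.9, 34.0 and 36.1 at chr4:112299088-112299089, and 11.6, 16.3 and 16.5 at chr4:112299145-112299146, at percentiles of 77.4, 81.2 and 73.1 for the first and 49.9, 54.9 and 47.9 for the second. The lists ranked each of these regions alike. A further 14 regions, none of them found in all 3 lists, lay between 5509 and 20210 nt past the start.

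The sites of Skint10 were concentrated in the middle of the gene, chr4:112710830-112774861. A group of 12 regions between 30077 and 38832 nt past the start held 13, 4 and 7 of its sites, including the shared region at chr4:112736027-112736031, with best scores of 62.8, 5.87 and 44.1. In list 2 this was percentile 26.5, against 89.1 and 79.1 in lists 1 and 3. Without list 3, 5 regions of Skint10 were found in both remaining lists. In Skint1, chr4:112006269-112029538, the shared region was chr4:112028284-112028286, 1253 nt before the end, with best scores of 2.20, 18.4 and 7.57. It is 1 of 3 regions within 74 nt of each other, and it had low percentiles in list 1, 14.0, and in list 3, 27.6.

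Skint6 spans 482358 nt, from chr4:112804616-113286973, and its sites fell into separate stretches. In the first 50000 nt past the start it held 18, 11 and 15 sites in lists 1, 2 and 3, in 27 of its 50 regions, of which 3 were found in all 3 lists. Between 50000 and 200000 nt there were 12, 5 and 12 sites and 2 shared regions. Between 200000 and 300000 nt no list had an own-strand site. Between 300000 and 350000 nt there were 18, 10 and 12 sites with 3 shared regions, and the remainder of the gene held 2, 2 and 3 sites with 1 shared region. All 3 lists thus had sites toward the start, fewer between 50000 and 200000 nt, none between 200000 and 300000 nt and a second group beyond. The edges of these windows were chosen after the values were seen. Most of the second group, including its 3 shared regions, lay under annotated pseudogenes. The strand of these pseudogenes was not established here, so whose RNA these sites belong to cannot be told. In lists 1, 2 and 3, Gm12816 held 9, 5 and 10 of these sites and Gm12818 held 2, 1 and 2. The annotated 3′ end of Skint6 was bare, as the last own-strand region lay 63875 nt before it.

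The 9 shared regions of Skint6 were of moderate score. Near the start, chr4:113274021-113274030 had best scores of 13.0, 4.36 and 3.68, and chr4:113259958-113259965 stood at percentiles 75.3, 43.3 and 68.9. The nearby single nucleotide 113259774 had 32.2, 2.17 and 1.38, at percentiles 76.9, 11.0 and 5.92, and was thus high in list 1 alone. Farther in, chr4:113196929-113196933 had best scores of 8.95, 28.4 and 18.0, and chr4:113141049-113141064 had 2.56, 19.3 and 18.6. The region nearest to the end, chr4:112868589-112868590, had 7.51, 21.3 and 26.3. By percentile list 1 ranked these 3 regions lowest, with 42.8, 16.1 and 38.2 in the order given.

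The remaining 3 shared regions of Skint6 lay under annotated pseudogenes of a strand not established here, and whose RNA they belong to was not tested. The pseudogene Gm12816, chr4:112955008-112956290, held 2 of them, with best scores of 56.6, 23.2 and 6.37 at chr4:112955316-112955320 and 29.7, 21.7 and 31.5 at chr4:112955652-112955660. The pseudogene Gm12818, chr4:112978268-112979843, held the third, at chr4:112979503-112979513, with 10.7, 11.9 and 14.3. Under no other annotated gene, Skint6 had 6 shared regions.

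Among genes of similar length Skint6 had many regions. The 5 protein-coding genes of known strand closest to it in span length were Myo16, Mageb18, Slc25a21, Chrm3 and Diaph3, and none had an own-strand region in all 3 lists. Diaph3 had most sites among them, with 9, 0 and 5. Of 152 genes with spans of 400000 to 600000 nt, 49 had a shared region, the median was 0, and Skint6 was the only 1 with 9 or more. Over all 17492 genes, 8 had 9 or more, Skint6 included. For every gene, regions under overlapping genes were counted. In Skint6, 3 of the 9 lay under pseudogenes, and its rank with the other 6 alone was not computed. Expression was not matched, Skint6 was chosen with earlier results of these data known, and no test was made. Skint5 is still longer, 521613 nt from chr4:113477891-113999503, and resembles Skint6 most at its promoter, yet it had no region in all 3 lists and a single region in 2 lists, at chr4:113962432-113962435.

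**Figure D3:**
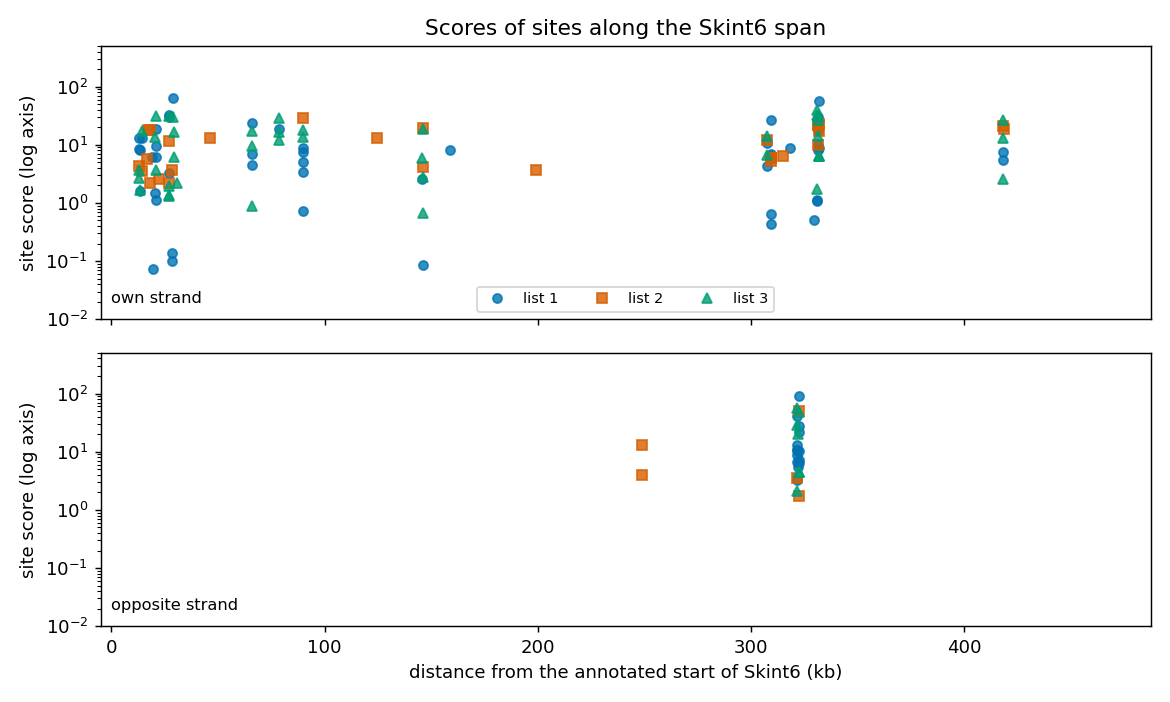
Score of every site in the Skint6 span, on a log axis, against the distance from the annotated start in kb, for the own strand (upper panel) and the opposite strand (lower panel), coloured by list. Own-strand sites crowd the first 50 kb and a second stretch beyond 300 kb, and 25 of the 27 opposite-strand sites form 1 tight cluster.

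Opposite-strand sites were present in 2 of the 10 members, Skint6 and Skint4, where 7.06% of protein-coding genes had an opposite-strand region in any list. In the family 16, 6 and 8 sites lay on the opposite strand in lists 1, 2 and 3, so that own-strand sites made up 90.4% (95% exact binomial interval 84.8 to 94.4), 93.2% (85.7 to 97.5) and 92.6% (85.9 to 96.7). These intervals count every site as independent, but 25 of the opposite-strand sites lay in 1 cluster of 743 nt. They are therefore too narrow, and their overlap is not evidence that the lists were alike. Skint4 had 2, 1 and 0 of the opposite-strand sites, in 1 region at chr4:112120431-112120441, and Skint6 had 14, 5 and 8. A region in all 3 lists on the opposite strand was present in Skint6 alone among the members, where 2.6% of protein-coding genes had one. In Skint6 own-strand sites made up 78.1%, 84.8% and 84.0%.

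The opposite-strand sites of Skint6 formed a compact cluster of 743 nt at chr4:112964668-112965410 on the plus strand, under no other annotated gene. It held 25 of the 27 opposite-strand sites, with 14, 3 and 8 in lists 1, 2 and 3, and 5 regions, of which 3 were found in all 3 lists. The region chr4:112964668-112964676 had best scores of 89.4, 50.2 and 48.8, all at the nucleotide 112964671, and was stronger in every list than any of the 6 own-strand shared regions under no other gene. The region chr4:112965375-112965385 had 40.5, 3.54 and 55.7, and was thus the stronger of the pair in list 3. A single shared nucleotide, 112964689, had 10.3, 1.71 and 4.39. The other 2 opposite-strand sites, at chr4:113038108-113038109, were called in list 2 alone. Without list 1, 13 opposite-strand sites remained, and without list 2 the regions found in both other lists numbered 5.

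Spacings in this cluster were close to those under Gm12816 on the other strand. On the plus strand, the 5 regions of the cluster, each found in at least 2 lists, followed each other at 17, 343, 348 and 28 nt from middle to middle. On the minus strand, the regions under Gm12816 found in at least 2 lists followed each other at 338, 346 and 27 nt in the direction of rising coordinates. The pattern under Gm12816 thus lacked a pair like the one 17 nt apart, and the other 3 spacings came in the same order of coordinates. Because the strands differ, the order along the RNA, from 5′ to 3′, was reversed between them. These spacings were noticed after the values were seen, and whether the underlying sequences are copies was not tested. Among the 9 regions of Skint6 found in all 3 lists on its own strand, which make 36 pairs, no spacing occurred a second time within 2 nt.

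The arrangement of regions was compared between members. The own-strand regions of the 8 Skint genes with at least 4 regions, Skint8 among them, were compared in 28 pairs by sliding the regions of one along the other. The best shift brought at most 4 regions within 10 nt of a partner, and the same search with one gene turned round also gave at most 4. The count was higher in the true orientation for 5 pairs, equal for 20 and lower for 3. Placed at their annotated starts, no pair had a region at the same distance within 10 nt. Within 100 nt, Skint9 and Skint6 had 9 such regions and the other pairs 0 to 2. Both genes have most of their regions at similar distances, from 12682 to 34018 nt in Skint9 and from 12845 to 30594 nt in Skint6, and no test was made. Between Skint5 and Skint6, whose sequences were compared only around the start, the closest approach was a Skint5 region at 29051 nt and a Skint6 region at 29083 nt past the start, 32 nt apart, while the remaining Skint5 regions lay 475 to 6476 nt from any of Skint6.

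A large group of sites lay outside every annotated gene, downstream of Skint1 on its strand. The annotated end of Skint1 and the start of Skint4 are 42477 nt apart. In the stretch from 710 to 16532 nt past the Skint1 end, the plus strand held 56, 7 and 32 sites in lists 1, 2 and 3, against 2, 1 and 9 in Skint1 itself. Each list thus had more sites after the gene than in it, although list 2 had few in either. They formed 46 regions, of which 5 were found in all 3 lists, 10 in 2 and 31 in 1, and the sites ended 25946 nt before Skint4.

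The strongest of these regions, chr4:112039291-112039292, lay 9753 nt past the end and had best scores of 200, 120 and 151, at percentiles 98.7, 97.5 and 97.8 of the lists. It stood above every own-strand region of the 10 members in list 2 and list 3. The single nucleotide 112037589, 8051 nt past the end, had scores of 104, 62.2 and 62.2. The other three shared regions were chr4:112031809-112031811, with 38.4, 12.7 and 20.4, chr4:112043659-112043670, with 57.4, 34.9 and 56.1, and the nucleotide 112044020, with 27.4, 21.2 and 37.8. By percentile, list 2 ranked 4 of the 5 lowest, while 112037589 had its lowest percentile, 87.3, in list 3. Of 14961 protein-coding genes with unannotated sequence past their end, within 20000 nt and up to the next gene, 1.24% had a region in all 3 lists there, and Skint1 was the only 1 with 5 or more. Which transcript these sites belong to was not tested, and they are not counted among the sites of Skint1 above.

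**Figure D4:**
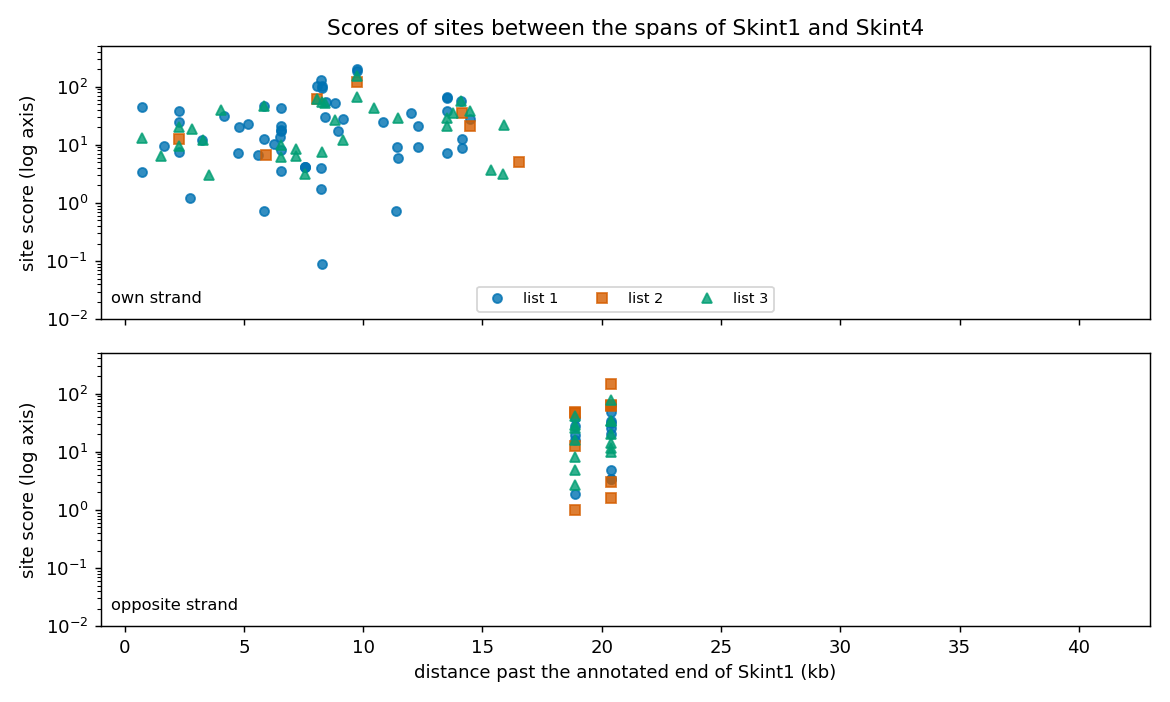
Score of every site between the annotated spans of Skint1 and Skint4, on a log axis, against the distance past the annotated end of Skint1 in kb, for the strand of Skint1 (upper panel) and the opposite strand (lower panel), coloured by list. Own-strand sites run on to 16532 nt, and the opposite strand has 2 isolated clusters.

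On the minus strand of the same gap, 2 regions were found in all 3 lists. The region chr4:112048402-112048409 had 5, 4 and 7 sites and best scores of 38.4, 48.3 and 40.9, and the region chr4:112049918-112049934 had 9, 5 and 7 sites and best scores of 62.9, 143 and 78.4. Here list 2 had the highest percentiles. They were 80.7, 88.2 and 76.9 for the first region, and 89.1, 98.4 and 91.4 for the second. Between Skint6 and Skint5, a further shared region on their strand covered chr4:113403450-113403465, with best scores of 19.5, 5.55 and 18.0. In all, 63 regions lay between or beside the spans of the Skint genes, and 8 were found in all 3 lists.

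Skint8, which is not among the 10 members, had 1, 3 and 0 own-strand sites in 4 regions, each in a single list. Within 1 Mb of the members, regions shared by all 3 lists lay in 2 other protein-coding genes. These were Spata6, with 3 such regions, all on the minus strand under the pseudogenes Gm12961 and Gm12960 inside its span, and Pdzk1ip1, with 1. The long noncoding RNA gene Gm33655 held 1 as well. Agbl4, Trabd2b, Foxd2, Cmpk1 and the long noncoding RNA gene Gm12830 had sites but no region in all 3 lists.

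Relatives of the family had few sites. These counts took either strand, since the strand of some genes was not in the reference, and on either strand 18.6% of 21900 protein-coding genes had a region in all 3 lists. Of 16 butyrophilin and B7 genes, 14 had no region, where 37.7% of protein-coding genes had one in any list, and 1 had a region in all 3 lists. It was Cd80, a ligand that costimulates T cells, with 3, 3 and 5 sites. None of the butyrophilin-like genes Btnl1, Btnl2, Btnl4, Btnl6, Btnl9 and Btnl10 had a site. Their spans are short, from 9019 to 18765 nt, against 15337 to 521613 nt in the Skint members. Length and expression were not matched, and no test was made.

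Among 22 genes by which keratinocytes or thymic epithelium address T cells or respond to them, 7 had a region in all 3 lists and 11 had none in any list. Cd44, an adhesion receptor, had 8 shared regions, and Cdh1, the E-cadherin that tethers intraepithelial T cells, had 4, with 20, 20 and 30 sites. H60c, an epidermal ligand of the receptor NKG2D, had 2, with 4, 3 and 3 sites, and Ulbp1, a ligand of the same receptor, had 1. Fgfr2, a receptor for growth factors that dendritic epidermal T cells release, had 2, Plxnb2 had 1 and Cxadr, the ligand of JAML on these T cells, had 1. The cytokine genes Il15, Il7 and Tslp had no site. The share, 7 of 22, stood above the background, and no test was made. The list was chosen with earlier results of these data known, and gene length and expression were not matched. The difference therefore cannot be read as a trait of these genes.

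The label gives epidermis and epithelial cells, and cell type markers were read in the same way. Of 11 keratinocyte markers, 7 had a region and 4 had one in all 3 lists, beside 37.7% and 18.6% of protein-coding genes: Krt5, Krt15, Trp63 and Dsg1a. Krt14, Krt1, Krt2 and Lor had no site. RNA levels were not measured here, so a lack of sites cannot be read as a lack of the RNA. Of the 10 markers in the annotation for dendritic epidermal T cells, none had a site. Of 5 Langerhans cell markers, Csf1r alone had a region, also in all 3 lists, and the defining Cd207 had no site. Of 5 melanocyte markers, 3 had a region, Mitf, Dct and Pmel, and for Mitf it was found in all 3 lists. The part of other cell types in the Skint sites was not tested.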

How the data were processed

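The authors deposited 3 lists of single-nucleotide sites, which per the file headers were called with input, each on 2 replicates together, and whose value is a score with no stated scale. PureCLIP appears in a title in the labels, without its step. Per the submitters' processing notes the builds were mm10 and GRCm38, and the tools included HISAT2 2.1.0, cutadapt 1.16 and HOMER, with no step attached. The handling of duplicates and of reads with several alignments, not given in the sources used here, can move sites between copies such as the Skint genes. RNA came from membrane between 75 and 140 kDa.

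Sites were read into 1-based coordinates and joined with Python 3.11.15 and pandas 2.3.3, and the joining was tested on simulated data. Gene spans came from RefSeq on GRCm38.p6, and strands from its promoter table, which gave one for 17492 of 21900 protein-coding genes. A region belonged to a gene when its middle lay in the span. Promoters were aligned globally with Biopython 1.88. Shares carry exact binomial intervals (95%), which cover counting error at most. No exons or genome sequence were used here. Named genes were all members, Skint8, neighbours within 1 Mb that hold a site, 5 genes of similar span and the listed genes with a shared region. The members and lists were chosen with earlier results of these data known. The stretch after Skint1, the windows along Skint6, the spacings, the groups of neighbouring regions and genes named for lacking sites were chosen after the values were seen. Join distance, sharing distance, score threshold, overlapping genes, span ends and each list left out were varied.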

Additional observations from a re-analysis of the deposited data

How the results depend on the processing

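Of the recomputed values that the setting could change, 49 stayed within 1.5 times the value first given and 13 did not. The score threshold moved most. With the 50% of sites of each list that had the highest scores, regions of the family in all 3 lists numbered 9 against 22 with all sites, those of Skint6 1 against 9, opposite-strand regions 1 against 3 and opposite-strand sites of Skint6 10 against 27. With the top 25% these values were 1, 0, 1 and 5, and 1 member, Skint9, kept a region in all 3 lists against 6. Leaving out 1 list and asking for both others gave 23 to 40 own-strand regions, 6 to 7 members, 9 to 16 regions in Skint6, 3 to 5 opposite-strand regions and 13 to 22 opposite-strand sites of Skint6. The highest region counts came without list 2 and the lowest site count without list 1. Joining at 5, 20 or 50 nt, sharing by overlap or within 50 nt, ends extended by 1000 nt, and leaving out sites under other genes, which gave Skint6 6 regions, kept 6 members with a region. Extended ends, sharing within 50 nt and asking for 2 lists in place of 3 loosen the rule, so they could hardly lower the number of members. The top 50% of scores, a stricter setting, left 4 members. Adding up to 20000 nt past each 3′ end, chosen after seeing the data, gave 27 regions against 22. Among regions of Skint6 found in all 3 lists on its own strand, no spacing recurred with joining at 5, 20 or 50 nt, nor within 0 or 10 nt. At the top 50% and 25% of scores too few regions were left to form 2 spacings. No paired analysis was possible because each list pools replicates and their inputs. Depth is unknown, and an exact sign-flip test on 3 lists cannot go below 0.25.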
